A study of Schmidtea mediterranea with 48 samples.

Results

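In the dd_Smed_v4 transcriptome of the planarian *Schmidtea mediterranea*, a flatworm that rebuilds its body from small pieces, 4 contigs are named as heavy chains of muscle myosin. They are dd_Smed_v4_432 (dd_432) and dd_Smed_v4_1434 (dd_1434), both named *myosin heavy chain A* (*MhcA*, from clones M11 and M111), dd_Smed_v4_249 (dd_249), whose best match is human *MYH7*, and dd_Smed_v4_711 (dd_711), whose best match is human *MYH1*. These 4 of the 26401 contigs counted in both tissues were taken by name. The study asked what the nuclear receptor gene *nr4A* does at the ends of the body. Asexual animals of strain CIW4, with ploidy given as 2N, ate double-stranded RNA against *nr4A* (*nr4A(RNAi)* animals) or against *unc-22*, a gene of *Caenorhabditis elegans* (control animals). All had been starved for 7 days. After 2, 3, 4 and 5 weeks of RNAi, polyadenylated RNA was sequenced from heads cut just behind the eyes and from tail tips, in 3 libraries per tissue, week and RNAi group and 48 in all. Each library pooled the pieces of 6 animals, so the spread given below is the spread between pools. RNAi by feeding lowers a transcript in the whole animal and removes the gene from no cell.

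Myosin heavy chains are the motor subunits of the thick filament: the head of each chain hydrolyses ATP and pulls on actin, and the tails of many chains bundle into the filament shaft. The muscle of planarians lies mainly as a body wall of circular, longitudinal and diagonal fibers, and in other fibers around the pharynx and gut and between the body walls. Besides contracting, planarian muscle cells transcribe most of the collagens of the animal and the signalling genes that set position along the body. In a piece of tissue, fewer muscle cells and less myosin RNA per muscle cell cannot be told apart by these counts.

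Library totals on contigs ran from 13800550 to 27491137 counts in heads and from 13395084 to 42917781 counts in tails. The 4 myosin contigs were deeply counted, with 283 to 191112 reads per contig and library. Levels are given as CPM, contig counts scaled to a common library size with TMM factors. No contig lengths were used, so a level is compared between libraries and never between contigs. Reads were aligned with bowtie 1 and its best-alignment setting, and how reads that fit both *MhcA* contigs equally well were then assigned is not given in the sources used here, so the split of reads between dd_432 and dd_1434 is uncertain. *nr4A* itself was lower in all 12 *nr4A(RNAi)* libraries of each tissue than in every control library of its week (12.2 to 19.5 CPM in *nr4A(RNAi)* heads and 23.9 to 28.3 in control heads, and 12.8 to 18.3 CPM in *nr4A(RNAi)* tails and 18.5 to 25.6 in control tails). The summed level of the head genes *notum*, *sfrp1* and *ndk* was 327 to 372 CPM in control heads and 5.44 to 8 CPM in control tails, as the tissue labels have it.

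A group of 6 libraries stood apart from the others, and the results that rest on them are given with and without them. In them, 149 to 688 of 10497 contigs outside the gene lists used here were lower than the median of their tissue by more than 1 on the log2 scale, against 0 to 24 contigs in the other 42 libraries. Among them, 5 were *nr4A(RNAi)* libraries (head week 2 replicate 2, head week 4 replicate 2, head week 5 replicates 1 and 2, and tail week 2 replicate 1) and 1 was a control (tail week 3 replicate 1). In the 4 heads among them, 16.8% to 18.8% of the counted reads lay outside the contigs (mitochondrial, 5S ribosomal or unidentified), against 12.4% to 13.7% in the other 20 heads. The deposited tail counts held no such reads, so tails could not be compared in this way. The part of these differences between libraries in the results below was not tested beyond leaving the 6 libraries out.

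The *MhcA* contig dd_432, the most deeply counted of the 4, was lower in the head after *nr4A* RNAi in every week, and the gap widened from week to week. At week 2 it stood at 3733, 3140.4 and 3236 CPM in *nr4A(RNAi)* heads, against 4274, 4183 and 3837 CPM in control heads. At week 3 the values were 3569.8, 3359 and 3184 CPM in *nr4A(RNAi)* heads and 4126, 4484 and 4416 CPM in control heads. No *nr4A(RNAi)* library reached the lowest control of its week in either week. At head week 3, 12% of 20529 contigs had all 3 *nr4A(RNAi)* libraries below the 3 controls. The same share goes with the week 3 separations of the other contigs below. The shares for the other head weeks are not given here. At week 4 dd_432 had 2937, 2426 and 2998 CPM in *nr4A(RNAi)* heads, against 4373, 4463 and 4266 CPM in control heads. At week 5 it had 2204, 2473 and 2587 CPM in *nr4A(RNAi)* heads, against 4751, 4864 and 5264 CPM in control heads. The groups stayed apart in these weeks too, and the *nr4A(RNAi)* mean was 82.2% of the control mean at week 2, 77.6% at week 3, 63.8% at week 4 and 48.8% at week 5.

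The second *MhcA* contig, dd_1434, was lower in the same heads, with a far larger spread. At week 2 it had 338, 122 and 299 CPM in *nr4A(RNAi)* heads and 393, 394 and 364 CPM in control heads. At week 3 it had 336, 321 and 299.8 CPM in *nr4A(RNAi)* heads and 370.2, 409.7 and 422 CPM in control heads. All 6 *nr4A(RNAi)* values lay below every control of their week, and replicate 2 of week 2 was less than any other of the 12. At week 4 the levels were 268, 60.8 and 292 CPM in *nr4A(RNAi)* heads, against 411, 415 and 418 CPM in control heads. At week 5 they were 16, 45.6 and 237 CPM in *nr4A(RNAi)* heads, against 448, 435 and 490.0 CPM in control heads. The 4 very low values, 16 to 122 CPM, were those of the 4 head libraries that stood apart, and the other 20 heads held 237 to 490.0 CPM.

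The contigs named for *MYH7* and *MYH1* followed the same course in the head with smaller gaps. For dd_249 (*MYH7*), whose human match is the slow-fiber and cardiac beta chain, week 2 gave 1793, 1625 and 1732 CPM in *nr4A(RNAi)* heads and 1807, 1841 and 1820.0 CPM in control heads. Week 3 gave 1898, 1768 and 1832 CPM in *nr4A(RNAi)* heads and 1979, 1972 and 1972 CPM in control heads. The groups did not overlap in these weeks, but the *nr4A(RNAi)* mean was still 94.2% and 92.8% of the control mean. At week 3, 12% of all contigs were below the controls in this way. By week 4 dd_249 stood at 1804, 1529 and 1760.3 CPM in *nr4A(RNAi)* heads, against 2053, 2193 and 2176 CPM in control heads. By week 5 it stood at 1417, 1655 and 1551 CPM in *nr4A(RNAi)* heads, against 2126, 2123 and 2271 CPM in control heads. The *nr4A(RNAi)* mean was then 79.3% of the control mean at week 4 and 70.9% at week 5.

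For dd_711 (*MYH1*), whose human match is an adult fast-fiber chain, week 2 was the only week in which the head groups overlapped, with 1080.3, 959 and 1000.1 CPM in *nr4A(RNAi)* heads and 1057, 1088 and 1061 CPM in control heads. Week 3 gave 1095, 1027 and 1006 CPM in *nr4A(RNAi)* heads and 1147, 1142 and 1111 CPM in control heads. Week 4 gave 994, 837 and 975 CPM in *nr4A(RNAi)* heads and 1155, 1176 and 1176 CPM in control heads. From week 3 on every *nr4A(RNAi)* head was below every control head of its week. At week 5 dd_711 stood at 773, 912 and 893 CPM in *nr4A(RNAi)* heads, against 1233, 1246 and 1326 CPM in control heads, and the *nr4A(RNAi)* mean was 67.7% of the control mean.

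**Figure D1:**
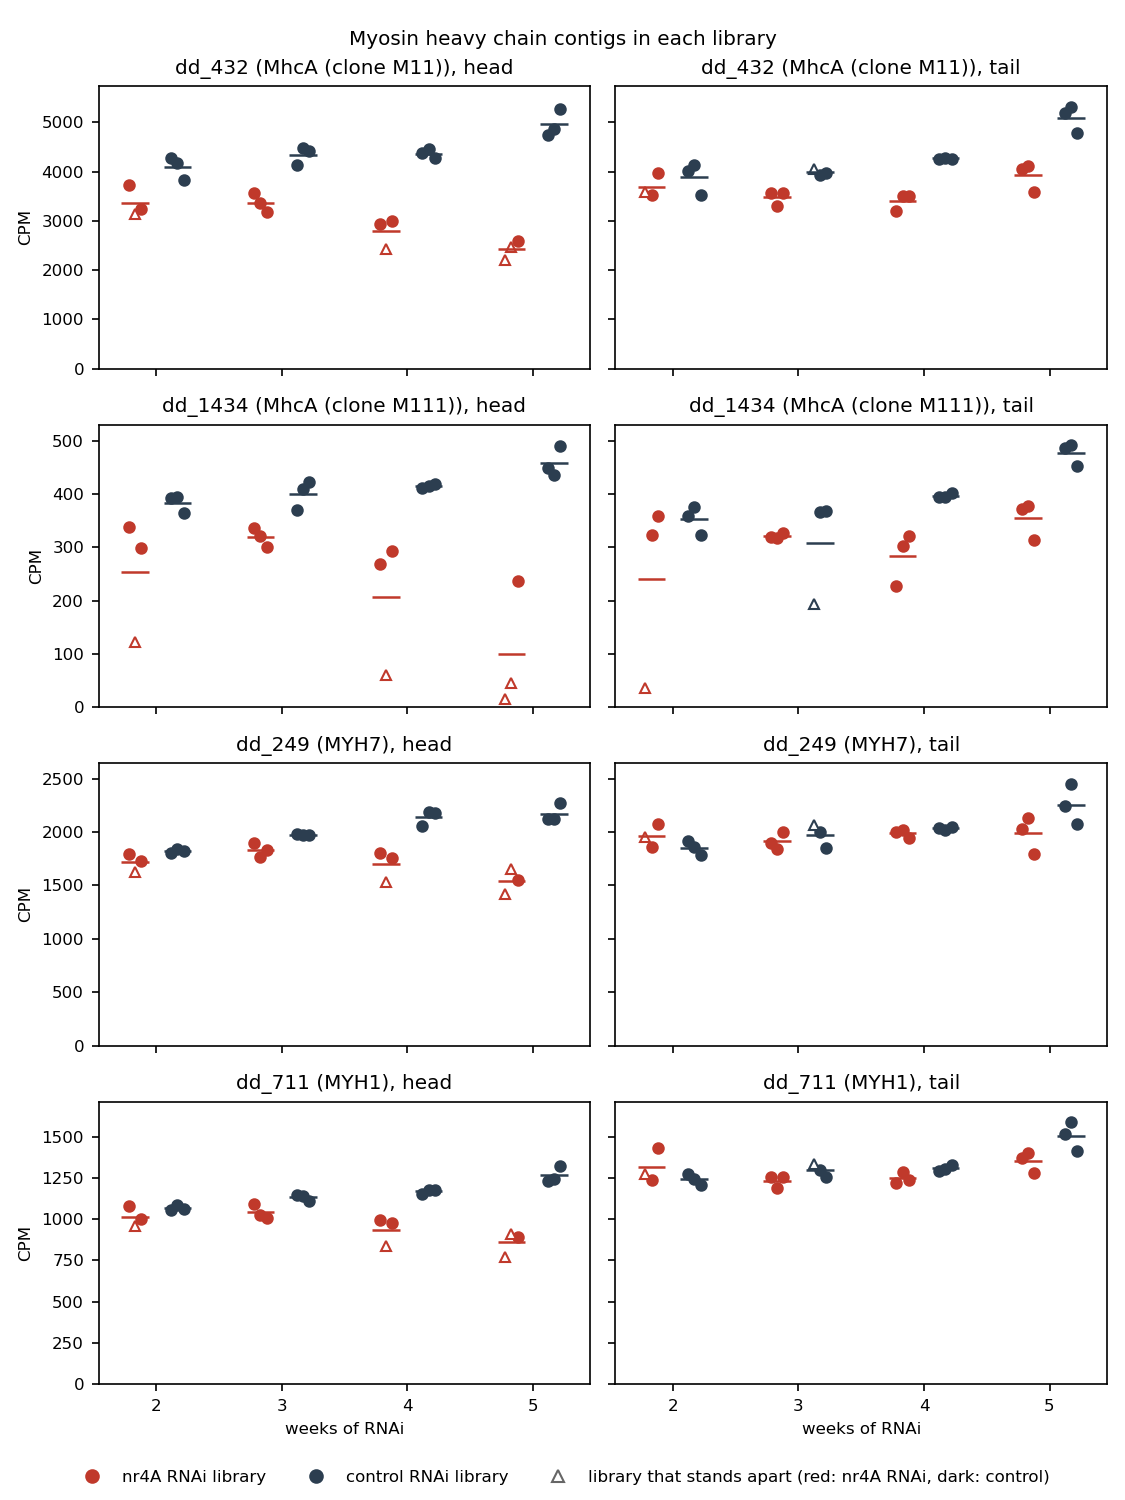
Level of each of the 4 myosin heavy chain contigs (CPM) in each library, by week of RNAi, in heads and tails, with *nr4A(RNAi)* libraries drawn left of the control libraries of their week. In heads the *nr4A(RNAi)* points of dd_432 lie below the control points in every week, and the very low points of dd_1434 (16 to 122 CPM) belong to the 4 head libraries that stood apart.

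Counted over the weeks, each of the 12 *nr4A(RNAi)* heads was lower than all 3 controls of its week for dd_432, dd_1434 and dd_249, and 11 of 12 did for dd_711; 0.643% of 20529 contigs showed this for all 12 heads. Together the 4 contigs took 0.503% ± 0.067 (SD, n = 3) of the contig counts in *nr4A(RNAi)* heads at week 5, against 0.879% ± 0.039 in control heads. The shares were 0.661% ± 0.074 and 0.771% ± 0.032 at week 2 for *nr4A(RNAi)* and control heads, 0.698% ± 0.023 and 0.810% ± 0.025 at week 3, and 0.585% ± 0.082 and 0.826% ± 0.019 at week 4. These shares overlapped at week 2 and were apart from week 3 on.

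Averaged over the 4 weeks, all 4 contigs were lower in *nr4A(RNAi)* heads by edgeR's quasi-likelihood test with Benjamini-Hochberg adjustment over all contigs, in which 13% of 19607 contigs were called at an adjusted p below 0.05 (5.22% lower). dd_432 fell by 0.59 on the log2 scale (SE 0.05, adjusted p = 5.43e-08). dd_249 fell by 0.26 (SE 0.04, adjusted p = 5.36e-05) and dd_711 by 0.28 (SE 0.04, adjusted p = 5.43e-05). dd_1434 had the largest change and the weakest support, with a log2 fold change of -1.03 (SE 0.31, adjusted p = 0.0334). Its call was lost in 11 of the 24 fits that left out 1 library, with adjusted p values up to 0.0593. Without the libraries that stood apart, dd_1434 came to -0.53 (SE 0.03, adjusted p = 4.13e-11), the same as dd_432 at -0.53 (SE 0.03, adjusted p = 1.89e-11), and dd_249 and dd_711 came to -0.23 each, among 21.9% of 20501 contigs called. By size alone, 0.291% of the contigs tested in all 24 heads had a more negative mean log2 fold change than dd_1434 and 2.39% had one more negative than dd_432, against 16.2% for dd_249 and 15.3% for dd_711.

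In the separate weekly fits of 6 head libraries, few contigs of any kind were called in the weeks in which libraries of a group spread widely. At week 3, the week with the smallest spread between heads (biological coefficient of variation 4.73%), 5.25% of 18377 contigs were called (3.65% lower) and 2 of the 4 myosin contigs were among them: dd_432 with a log2 fold change of -0.35 (SE 0.05, adjusted p = 0.000322) and dd_1434 with -0.32 (SE 0.05, adjusted p = 0.00116). dd_249 at -0.10 and dd_711 at -0.11 did not pass (adjusted p = 0.264 and 0.202). At week 5, where the coefficient was 27.5% and 0.0111% of 18015 contigs were called, dd_432 reached -1.03 (SE 0.11) with an adjusted p of 0.0985, and none of the 4 passed. dd_249 at -0.49, dd_711 at -0.56 and dd_1434 at -2.17 (SE 0.93) had adjusted p values of 0.16, 0.156 and 0.325. Of the 4, 3 had an unadjusted p below 0.05, as did 2848 of all contigs, and DESeq2 called 3, among 4.5% of all contigs. Week 4 was alike, with 0.049% of 18375 contigs called, none of them a myosin contig, and -0.65 (SE 0.11, adjusted p = 0.155) for dd_432; 3 of the 4 had an unadjusted p below 0.05, as did 1445 of all contigs, and DESeq2 called dd_432, among 0.784% of all contigs. At week 2, 0% of 18527 contigs were called, 526 had an unadjusted p below 0.05 and DESeq2 called 21. The 4 contigs ranged from -0.61 (dd_1434) to -0.093 (dd_711) in that week, 1 of them with an unadjusted p below 0.05 and none called by DESeq2. Once the libraries that stood apart were left out, 0.336% of 19021 contigs were called at week 2 and none of the 4, with -0.27 for dd_1434 (adjusted p = 0.0787) and -0.23 for dd_432 (adjusted p = 0.18). All 4 then passed at week 4, where 3.24% of 18851 contigs were called, with -0.56 for dd_432, -0.57 for dd_1434, -0.26 for dd_249 and -0.25 for dd_711. All 4 also passed at week 5, where a lone *nr4A(RNAi)* library was left and taken to vary like the others, and where 12.9% of 19345 contigs were called. At week 4, *nr4A(RNAi)* replicate 2 was the only library that stood apart, so leaving it out alone is the same fit with the same 4 calls. Leaving out *nr4A(RNAi)* week 5 replicate 3 alone, the one of its group that did not stand apart, gave 4 calls at week 5. The share of all contigs called without that replicate is not given here.

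The widening of the gap in the head was tested as the week 5 difference minus the week 2 difference. It was called for dd_432, at -0.76 on the log2 scale (SE 0.13, adjusted p = 0.0116), in a comparison in which 0.27% of 19607 contigs were called (0.224% in this direction). dd_711 at -0.49 (SE 0.10, adjusted p = 0.0545) and dd_249 at -0.42 (SE 0.10, adjusted p = 0.0925) did not pass, nor did dd_1434 at -1.61 (SE 0.88, adjusted p = 0.571). The call was lost with the replicate number as a block (-0.76, adjusted p = 0.147), where 0 of 19607 contigs were called. Leaving out control week 2 replicate 3 or *nr4A(RNAi)* week 2 replicate 1 took dd_432 to -0.67 and -0.63 with adjusted p values of 0.0637 and 0.0622. All 4 were called once the libraries that stood apart were left out, among 5.34% of 20501 contigs, at -0.71 for dd_432, -0.69 for dd_1434, -0.44 for dd_249 and -0.47 for dd_711.

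**Figure D2:**
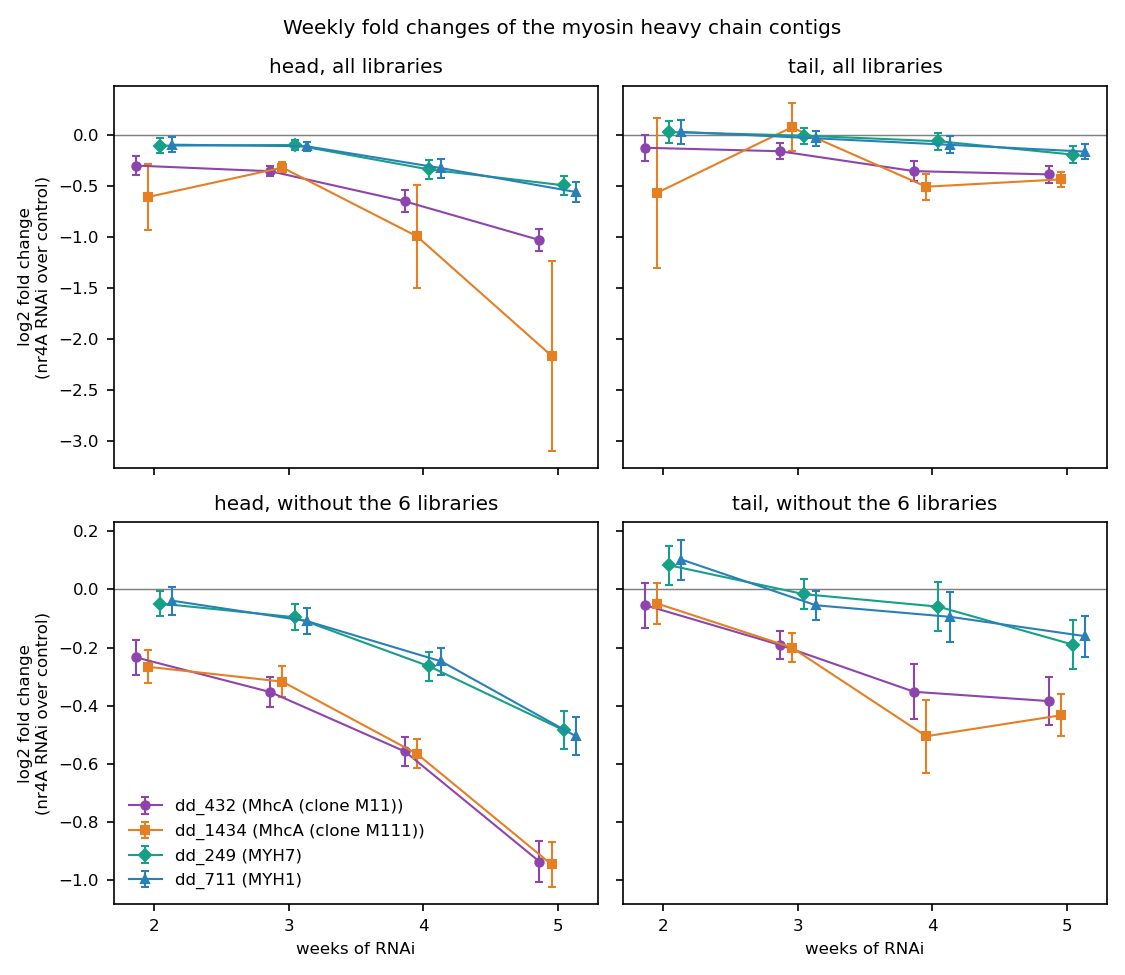
Weekly log2 fold change of each myosin heavy chain contig, *nr4A* RNAi over control RNAi, in heads and tails (points, with bars of 1 SE from the edgeR fit of that tissue and week). The top row uses the 6 libraries of each tissue and week. The bottom row leaves out the libraries that stood apart, and repeats the top row for weeks without any. In heads in the top row dd_432 moves away from 0 from week to week, to -1.03 at week 5, while dd_1434 is nearer 0 at week 3 (-0.32) than at week 2 (-0.61). The wide bars of dd_1434 come with the libraries that stood apart.

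In tail tips dd_432 was lower after *nr4A* RNAi as well, by less than in heads, and the mean differences of the other 3 contigs did not pass the test. dd_432 had 3583, 3534 and 3967 CPM in *nr4A(RNAi)* tails at week 2, against 4003, 4124 and 3532 CPM in control tails. At week 3 it had 3561, 3308 and 3566 CPM in *nr4A(RNAi)* tails, against 4053, 3936 and 3967 CPM in control tails. The groups overlapped at week 2 and were apart at week 3. At week 4 the levels were 3195, 3503 and 3503 CPM in *nr4A(RNAi)* tails and 4263, 4283 and 4263 CPM in control tails. At week 5 they were 4059, 4115 and 3592 CPM in *nr4A(RNAi)* tails and 5186, 5314 and 4778 CPM in control tails. The groups were apart in both weeks, and the *nr4A(RNAi)* mean was 79.6% of the control mean at week 4 and 77.0% at week 5. At week 5, 12.7% of 20529 contigs had all 3 *nr4A(RNAi)* tails below the 3 controls. The shares at tail weeks 3 and 4 are not given here, for dd_432 or for the other contigs below.

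dd_1434 in tails had 36.4, 324 and 359 CPM at week 2 after *nr4A* RNAi, against 358, 376 and 323 CPM in control tails. At week 3 it had 318, 317 and 327 CPM in *nr4A(RNAi)* tails, against 193, 367 and 367 CPM in control tails. The low value of each of these weeks, 36.4 CPM in an *nr4A(RNAi)* tail and 193 CPM in a control tail, was that of a library that stood apart, and the groups overlapped in both weeks. At week 4 the levels were 226, 302 and 321 CPM in *nr4A(RNAi)* tails and 394, 394 and 401.98 CPM in control tails. At week 5 they were 372, 378 and 314 CPM in *nr4A(RNAi)* tails and 487, 491 and 452 CPM in control tails. In these later weeks the groups did not overlap.

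dd_249 ran from 1792 to 2136 CPM over the 12 *nr4A(RNAi)* tails (median 1975), and from 1789.8 to 2451 CPM over the 12 control tails (median 2032). It was apart from the controls only at week 4, with 2006, 2020.2 and 1947 CPM in *nr4A(RNAi)* tails and 2039.5, 2024 and 2049 CPM in control tails. At week 2 the order was the other way for part of the libraries, since 2 of the 3 *nr4A(RNAi)* tails were above every control. dd_711 ran from 1187 to 1435 CPM over the *nr4A(RNAi)* tails and from 1208 to 1587 CPM over the control tails, and its groups were apart at weeks 4 and 5. At week 5 dd_711 had 1374, 1405 and 1284 CPM in *nr4A(RNAi)* tails, against 1519, 1587 and 1413 CPM in control tails, with the *nr4A(RNAi)* mean at 89.9% of the control mean.

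Over the 4 weeks, 9 of the 12 *nr4A(RNAi)* tails were below every control of their week for dd_432, 7 for dd_1434, 6 for dd_249 and 7 for dd_711. Over all contigs, 0.307% were below in all 12 tails, which none of the 4 was. The share of contigs reaching 6, 7 or 9 of 12 was not computed, so how unusual these counts are is not known. The mean difference was called in the tail for 1 of the 4 contigs, where 3.08% of 19601 contigs were called (1.87% lower): dd_432 fell by 0.25 on the log2 scale (SE 0.04, adjusted p = 0.00124). dd_1434 at -0.36 (SE 0.22, adjusted p = 0.613), dd_249 at -0.054 (SE 0.04, adjusted p = 0.721) and dd_711 at -0.061 (SE 0.04, adjusted p = 0.586) did not pass. Without the libraries that stood apart dd_1434 was called too, at -0.29 (SE 0.05, adjusted p = 0.000421), among 7.84% of 20016 contigs, and dd_432 was at -0.24.

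By week, the tail calls fell at week 5, where 9.89% of 18357 contigs were called (5.63% lower). dd_1434 had a log2 fold change of -0.43 (SE 0.07, adjusted p = 0.00239) and dd_432 one of -0.38 (SE 0.08, adjusted p = 0.0102), while dd_249 at -0.19 and dd_711 at -0.16 did not pass (adjusted p = 0.192 and 0.182). Leaving out control tail week 5 replicate 1 left 1 of these calls. At week 4, with 0.407% of 18684 contigs called, dd_1434 at -0.51 and dd_432 at -0.35 had edgeR adjusted p values of 0.207 and 0.289. Leaving out *nr4A(RNAi)* replicate 1 brought 2 calls, and the share of all contigs called in that fit is not given here. DESeq2 also made 2 calls and called 0.744% of all contigs. At week 3, 0.144% of 17994 contigs were called, and at week 2, 0% of 18207 were called, 239 had an unadjusted p below 0.05 and DESeq2 called 6. In both weeks 0 of the 4 myosin contigs had an unadjusted p below 0.05 and DESeq2 called 0. Leaving out the library of each week that stood apart gave 0.831% of 18402 contigs at week 3, with dd_1434 at -0.20 (adjusted p = 0.0694) and dd_432 at -0.19 (adjusted p = 0.082), and 0.355% of 18593 contigs at week 2, with all 4 between -0.054 and 0.10; none of the 4 was among them. The difference of week 5 minus week 2 was called for none of the 4 in the tail, where 0.0561% of 19601 contigs were called. The estimates were -0.27 for dd_432, -0.23 for dd_249, -0.20 for dd_711 and 0.13 for dd_1434. Of the 4, 1 had an unadjusted p below 0.05, as did 1726 of all contigs, and DESeq2 called 0. For dd_1434 the value without the libraries that stood apart was -0.38, not called.

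The libraries were taken as independent, and pairing of heads with tails by replicate number was not checked. The difference between the tissues was tested itself, by subtracting the mean difference of tails from that of heads over all 48 libraries. It was negative for 3 of the 4 contigs past the threshold, where 1.25% of 20529 contigs were called (0.74% with the head lower): dd_432 at -0.34 on the log2 scale (SE 0.06, adjusted p = 0.000542), dd_711 at -0.22 (SE 0.05, adjusted p = 0.00912) and dd_249 at -0.21 (SE 0.05, adjusted p = 0.0206). dd_1434 at -0.68 (SE 0.39) had an adjusted p of 0.546. *nr4A* itself gave -0.086 (adjusted p = 0.716) in the same test. Of 6 fits that each left out 1 replicate number of 1 RNAi group, 4 lost the call of dd_249 and 3 that of dd_711, and none lost that of dd_432. With the replicate number as a block dd_249 was at -0.21 with an adjusted p of 0.0684. All 4 passed when the libraries that stood apart were left out, among 3.73% of 21488 contigs, with dd_1434 at -0.25 (SE 0.06, adjusted p = 0.0222). The sample descriptions begin with one code for all head libraries and another for all tail libraries, and the labels do not say what it marks, so it cannot be told apart from the tissue in the levels, while each mean difference was taken within a tissue.

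Ratios of 2 contigs within the same library, which are free of library size, were compared next. The test of these ratios was chosen after seeing the data, so its p values restate a pattern already seen and are no independent support. In every head and every tail after *nr4A* RNAi, the log2 ratio of dd_432 to dd_249 lay below that of every control of the same week. The mean gap was -0.33 in heads and -0.20 in tails, and no gap of the 160000 relabellings of the libraries within weeks was larger in size (exact two-sided permutation p = 1.25e-05, the smallest they can give; 2.5e-05 after Benjamini-Hochberg adjustment over 12 ratios). By week the head gap was -0.20, -0.26, -0.32 and -0.54 from week 2 to week 5, and the tail gap -0.15, -0.15, -0.30 and -0.20. The ratio of dd_432 to dd_711 gave -0.31 in heads and -0.19 in tails, with 12 of 12 libraries below in each and the same p values. Set against each of the other 20528 contigs in turn, dd_432 gave a ratio below the controls of the week in all 12 libraries for 26.3% of them in heads and 1.3% in tails. The ratio of dd_249 to dd_711 moved by 0.01 in heads (exact permutation p = 0.268) and by 0.01 in tails (p = 0.616), with weekly values between -0.03 and 0.07.

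The *MhcA* contigs stayed together except in the libraries that stood apart and, by less, in 1 other tail. In the other 20 heads the log2 ratio of dd_1434 to dd_432 lay between -3.48 and -3.35, while in the 4 heads that stood apart it was between -7.11 and -4.69. In tails it lay between -3.82 and -3.38 in 22 libraries, and at -6.62 (*nr4A(RNAi)*) and -4.40 (control) in the others. The value of -3.82 was that of *nr4A(RNAi)* week 4 replicate 1, and the next lowest of the 22 was -3.53 (*nr4A(RNAi)* week 4 replicate 2). The difference of this ratio between *nr4A(RNAi)* and control heads was -0.76 with all libraries (exact permutation p = 0.049, adjusted p = 0.084) and -0.0035 without the libraries that stood apart; in tails it was -0.24 (p = 0.508) and -0.057. Over the 20 heads the log2 CPM of dd_1434 and dd_432 had a Pearson correlation of 0.991 and over the 22 tails of 0.950, where with all 24 libraries it was 0.822 in heads and 0.432 in tails. For dd_249 and dd_711 it was 0.967 in all heads and 0.878 in all tails, and for dd_432 and dd_711 it was hardly lower, at 0.963 and 0.854. These correlations describe libraries that share weeks and RNAi groups and have no test.

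**Figure D3:**
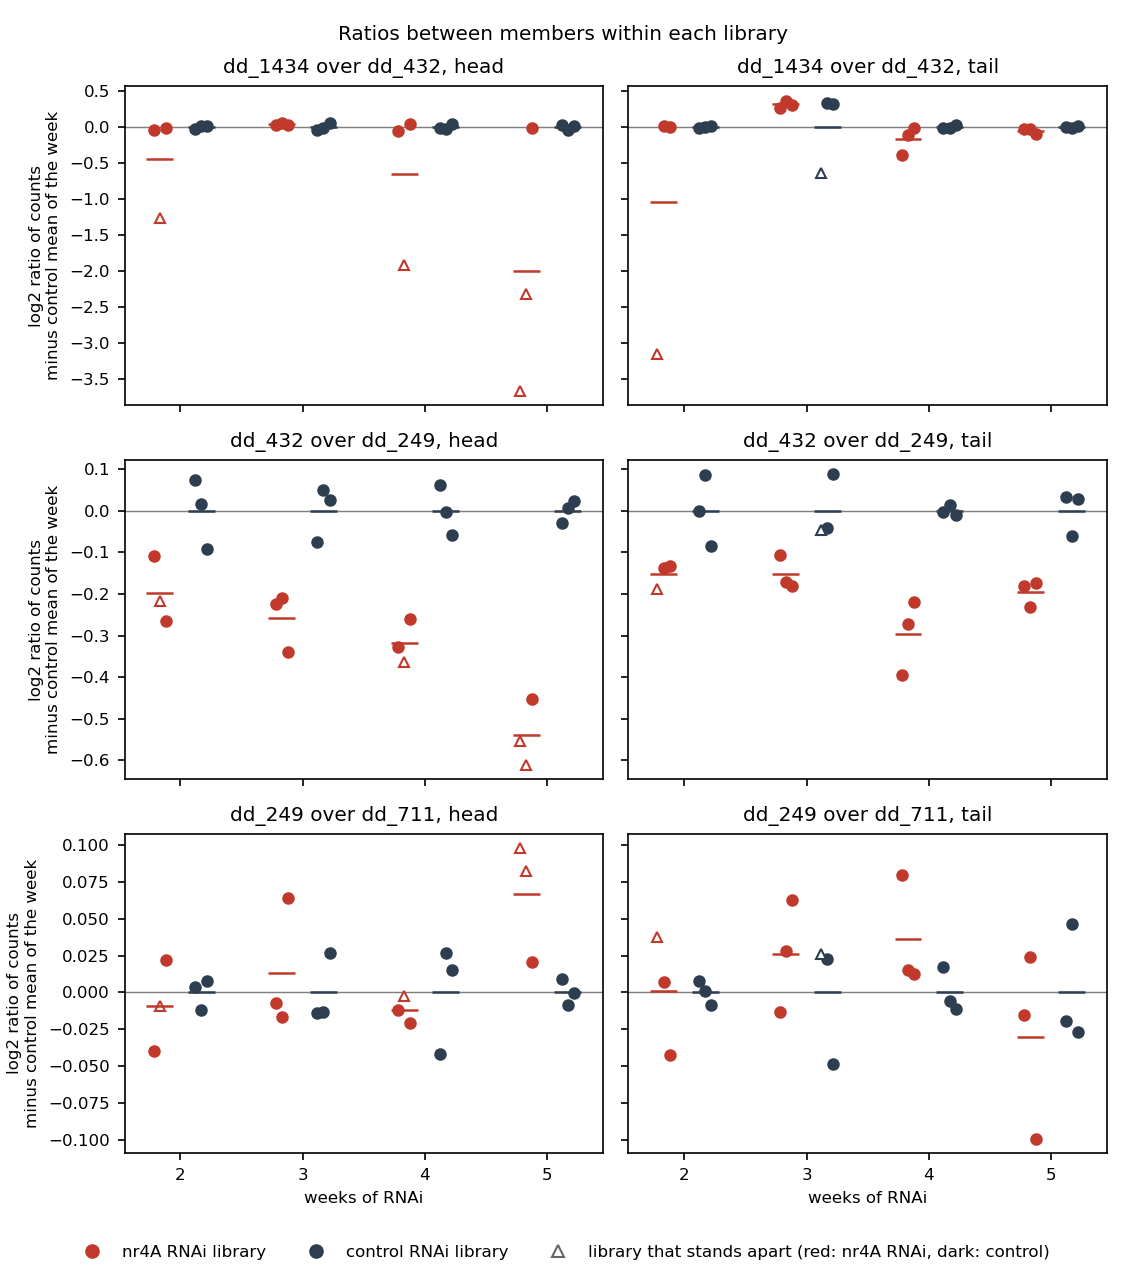
Log2 ratio of the counts of a pair of myosin heavy chain contigs within each library, minus the control mean of that tissue and week. Points are given by week and tissue, with *nr4A(RNAi)* libraries left of control libraries. The ratio of dd_432 to dd_249 is below the controls of the week in all 12 heads and all 12 tails after *nr4A* RNAi, and the ratio of dd_1434 to dd_432 departs most in the libraries that stood apart.

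In the libraries that stood apart, dd_1434 was further below the rest of its group than the other 3 contigs were. At head week 5, replicates 1 and 2 of the *nr4A(RNAi)* group had 6.73% and 19.2% of the dd_1434 level of the remaining library, against 85.2% and 95.6% for dd_432, 91.3% and 107% for dd_249 and 86.6% and 102% for dd_711. In the tail libraries that stood apart dd_1434 was at 36.4 CPM (*nr4A(RNAi)*) and 193 CPM (control), while dd_432 at 3583 and 4053 CPM, dd_249 at 1951 and 2071 CPM and dd_711 at 1275 and 1337 CPM were inside the range of the other tails. The dd_1434 level of the 5 *nr4A(RNAi)* libraries that stood apart was 6.73% to 38.3% of the mean of the libraries of their group and week that did not stand apart, and that of the control tail was 52.5%.

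In control animals 1 of the 4 contigs was called different between heads and tails, beside 72.4% of all contigs. Without a filter 3 of the 4 were called, among 59.3% of all contigs, and with a replicate block 2, among 72.2%. dd_711 was lower in control heads than in control tails, at 1057 to 1326 CPM (median 1151) in heads and 1208 to 1587 CPM (median 1301) in tails, with a log2 difference of -0.20 (SE 0.03, adjusted p = 1.44e-07); 72.4% of 19962 contigs were called in this comparison (37.1% lower in heads). dd_432 had 3837 to 5264 CPM in control heads and 3532 to 5314 CPM in control tails (log2 difference 0.05, SE 0.03, adjusted p = 0.187), and dd_249 had 1807 to 2271 CPM in control heads and 1789.8 to 2451 CPM in control tails (adjusted p = 0.987). dd_1434 had 364 to 490.0 CPM in control heads and 193 to 491 CPM in control tails (log2 difference 0.13, SE 0.07, adjusted p = 0.0973). The ranges of the tissues overlapped for every contig. When the control tail that stood apart was left out, dd_1434 (0.086, adjusted p = 0.00868) and dd_432 (0.075, adjusted p = 0.0211) were called higher in control heads, among 73.5% of 20377 contigs.

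The control levels were also compared between weeks. At week 5 control heads were above those of week 2 by 0.28 on the log2 scale for dd_432, 0.26 for dd_1434, 0.26 for dd_249 and 0.25 for dd_711. None of them passed the threshold (lowest edgeR adjusted p = 0.0711, for dd_249), where 1.63% of 19607 contigs were called. Of the 4, 3 had an unadjusted p below 0.05, as did 2417 of all contigs. DESeq2 called 2 of them, among 3.98% of all contigs. Control tails at week 5 were higher by 0.39 for dd_432 (SE 0.09, adjusted p = 0.0485), the only one called, among 0.582% of 19601 contigs (0.413% higher at week 5), and 0.43 for dd_1434, 0.28 for dd_249 and 0.27 for dd_711. The call of dd_432 was lost in all 6 fits that left out 1 control library. Without the libraries that stood apart, all 8 of these values were called, among 15.6% of 20501 contigs in heads and 3.08% of 20016 in tails.

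The other contractile proteins were set beside the heavy chains, with no test between the lists. Of 9 contigs named for them, 2 were lower in *nr4A(RNAi)* heads over the 4 weeks and 1 in tails (4 and 1 of the 4 heavy chains; 5.22% and 1.87% of all contigs), with a median log2 fold change of -0.12 in heads and -0.01 in tails, beside -0.0084 and 0.0020 over all contigs tested. The medians of the 4 heavy chains were -0.43 and -0.16. The largest change was that of *ATP2A2* (dd_1772), the pump that returns calcium to the sarcoplasmic reticulum after contraction, at -0.81 in heads (SE 0.06, adjusted p = 3.12e-08) and -0.35 in tails (SE 0.06, adjusted p = 0.000557). *TAGLN* (dd_635), an actin-binding transgelin, was at -0.37 in heads (SE 0.03, adjusted p = 5.66e-08) and -0.086 in tails (adjusted p = 0.312). These 2 were also the ones whose head and tail differences differed, by -0.47 for *ATP2A2* (adjusted p = 0.000274) and -0.29 for *TAGLN* (adjusted p = 0.000213).

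The remaining 7 contractile contigs were not called in the head. Both tropomyosin contigs, named *TPM1* (dd_405 and dd_436), which lie along the actin filament and gate the access of myosin, were at -0.12 each (adjusted p = 0.0652 and 0.0952). The calponin *CNN2* (dd_333) was at -0.12, the essential light chain *MYL6B* (dd_223), which binds the neck of a heavy chain, at -0.043, the capping subunit *CAPZB* (dd_1165) at 0.049 and *TTN* (dd_3381), named for the spring protein titin, at 0.017. *ACTN2* (dd_10174), an actinin that crosslinks actin where filaments are anchored, was at -0.47 (SE 0.17, adjusted p = 0.0778). Without the libraries that stood apart 8 of the 9 were called lower and 1 higher in heads, in the fit that called 21.9% of 20501 contigs.

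**Figure D4:**
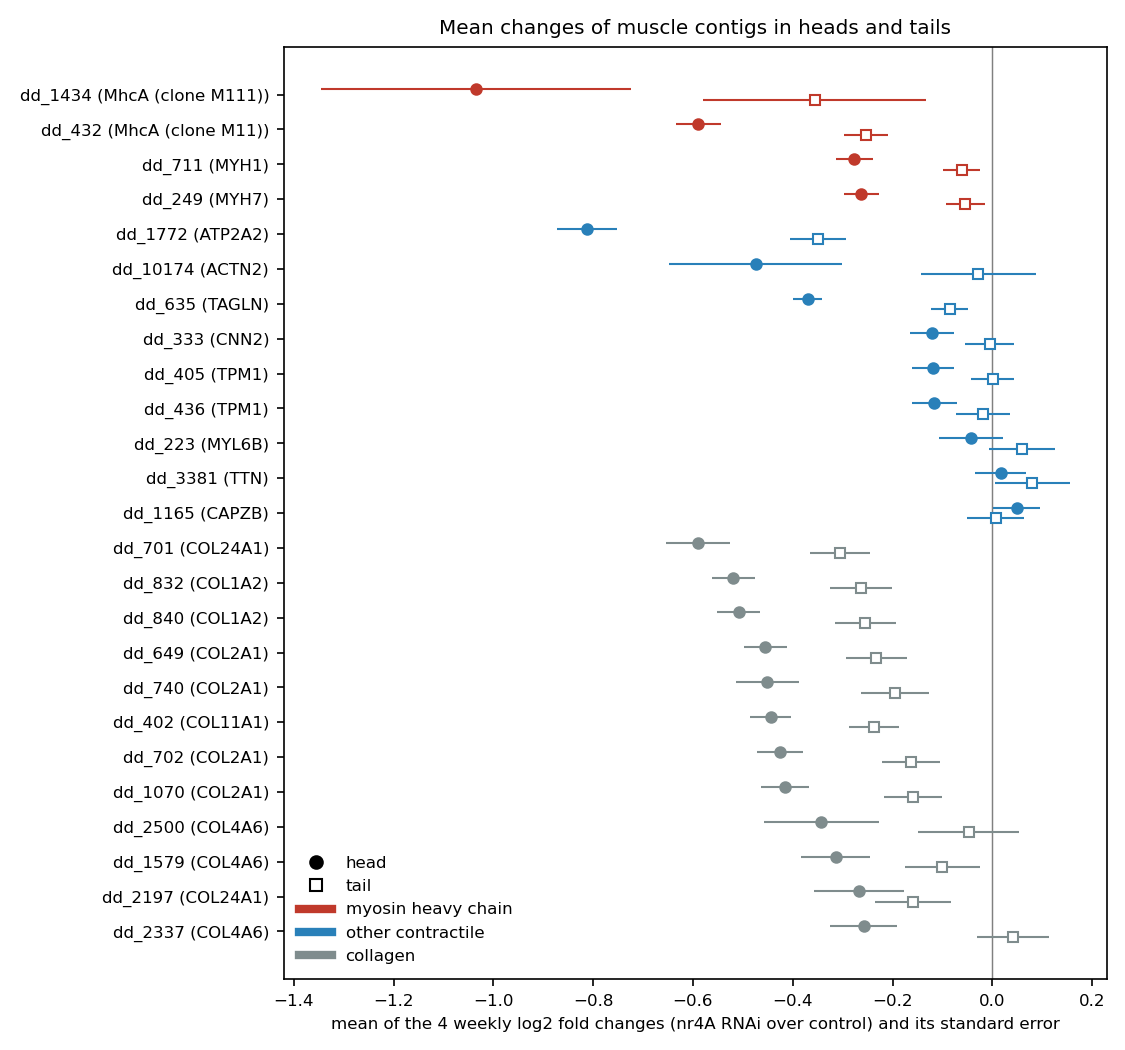
Mean log2 fold change over the 4 weeks, *nr4A* RNAi over control RNAi, of the heavy chains and the other muscle contigs in heads and tails (points, with bars of 1 SE). The 4 heavy chains are below 0 in heads, -1.03 to -0.26, and *ATP2A2* at -0.81 lies between dd_1434 and dd_432.

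The collagens, which planarian muscle makes for the extracellular matrix, fell in the same heads. Of 12 collagen contigs, 10 were lower in *nr4A(RNAi)* heads (median -0.43; 5.22% of all contigs were called lower) and 5 in tails (median -0.18; 1.87% of all contigs), and the head minus tail difference was called by edgeR for 0 of 12, beside 1.25% of all contigs, with a median of -0.26, beside -0.019 over all contigs. Of the regulators, *nkx1-1* (dd_19327), a homeobox gene that circular body wall fibers need, was at -0.53 in heads (SE 0.11, adjusted p = 0.00255) and -0.43 in tails (SE 0.11, adjusted p = 0.0290). *myoD* (dd_12634), which longitudinal fibers need, was at 0.10 in heads (adjusted p = 0.118) and -0.16 in tails (adjusted p = 0.358). The unconventional myosin *MYO7A* (dd_5823), which builds no thick filaments, was at -0.17 in heads (SE 0.10, adjusted p = 0.274) and 0.059 in tails (adjusted p = 0.956).

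Markers of other cell types were read beside all contigs, of which 7.82% were called higher and 5.22% lower in heads, and 1.21% higher in tails. The summed level of 4 neuronal contigs (*prohormone convertase 2*, *GAD1*, *RIMS2* and *SYT11*) was 736 to 894 CPM in *nr4A(RNAi)* heads and 646 to 789 CPM in control heads, and 301 to 359 CPM in *nr4A(RNAi)* tails and 292 to 339 CPM in control tails, with none at 0 in any library; 2 of 4 were called higher in heads (*SYT11* at 0.30 and *prohormone convertase 2* at 0.15) and 1 in tails. Of 4 ciliary dyneins 1 was called higher in heads, with sums of 101 to 180 CPM in *nr4A(RNAi)* heads and 123 to 160 CPM in control heads. Without the libraries that stood apart 4 of 4 were called higher in heads (median 0.25), in the fit that called 21.9% of 20501 contigs. Of 4 genes of dividing cells 1 was called higher in heads, with sums of 54.9 to 63.9 CPM in *nr4A(RNAi)* heads and 54.4 to 60.6 CPM in control heads. Both contigs of the epidermal lineage, *agat-1* and *vim*, were called lower in heads, at -0.22 and -0.68, with sums of 655 to 977 CPM in *nr4A(RNAi)* heads and 896 to 1606 CPM in control heads. In tails *vim* was called lower, at -1.03 (adjusted p = 2.25e-07), and *agat-1* was at 0.017 (adjusted p = 0.971), with sums of 758 to 1177 CPM in *nr4A(RNAi)* tails and 808 to 1316 CPM in control tails. The study had already named *vim* from these data as lowered by *nr4A* RNAi in head and tail. Its fall is therefore no independent reading of the epidermal lineage. The part of such shifts in the myosin differences was not tested.

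The contigs whose levels followed the 4 heavy chains most closely were ranked among 10532 by the smaller of 2 Pearson correlations with the mean standardized level of the heavy chains, over 24 heads and over 24 tails. The first 5 were dd_2307 (0.922 in heads and 0.899 in tails), dd_4752 (0.955 and 0.843), dd_1752 (0.843 and 0.832), dd_4975 (0.902 and 0.830) and dd_1425 (0.860 and 0.830), none of which the sources used here name. These 5 were picked for following the heavy chains in these same libraries of both RNAi groups. Their differences after *nr4A* RNAi therefore partly restate that choice and are no independent support. Over the 4 weeks dd_2307 was lower in *nr4A(RNAi)* heads by 0.38 on the log2 scale (adjusted p = 0.000162) and in tails by 0.23 (adjusted p = 0.0113). dd_4752 at -0.28, dd_4975 at -0.28 and dd_1425 at -0.18 were called in heads and not in tails, and dd_1752 at -0.13 (adjusted p = 0.0842) in neither, while the head minus tail difference was called for none of the 5. *ATP2A2* ranked 11 (0.925 and 0.775), and the first collagen, dd_702, ranked 29 (0.783 and 0.722).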

How the data were processed

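The authors trimmed the reads with Trimmomatic 0.32, aligned them with bowtie 1 (best-alignment setting) to the dd_Smed_v4 contigs and deposited raw counts of reads per contig, whole numbers without normalization, for 24 head and 24 tail libraries made with a kit that keeps no strand. The deposited counts of the 2 tissues differed in form. Those of heads had 26566 rows for 26402 contigs and included reads outside the contigs. Those of tails had 38633 rows for 26401 contigs and 0% of reads outside the contigs. Base calling with CASAVA 1.7.0 is named in the submitters' processing notes. Tables of the authors' own DESeq comparisons (group means, fold changes and p-values) were not used.

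Counts were summed over the isoforms of a contig number, filtered with filterByExpr (minimum count 10, minimum total 15), scaled by TMM and tested with edgeR 4.0.16 under R 4.3.3 (quasi-likelihood F test, Benjamini-Hochberg adjustment over all contigs tested, threshold 0.05). Weekly differences used the 6 libraries of a tissue and week, tissue means and trends the 24 libraries of a tissue, and the comparison of tissues all 48 libraries. Groups and replicate numbers come from the labels. DESeq2 1.42.0, median-of-ratios size factors, no filter, a replicate block, weekly tests from 1 fit per tissue and leaving out libraries were the alternatives. The code was tested on simulated data. The myosin contigs, the named genes (the 4 contigs, *nr4A*, lists of contractile, collagen and other muscle contigs, markers of other cell types, and the 5 contigs of most similar level) and the tests were chosen with earlier results of these data known. Leaving out the 6 libraries that stood apart, the ratios of contigs, and *ATP2A2* and dd_702 as named in the ranking were chosen after seeing the data. No sequences or contig lengths were used here. No 2 libraries of the same group were duplicates, and pairs of libraries from different groups were not checked.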

Additional observations from a re-analysis of the deposited data

Results flagged for a closer look

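Differences of *nr4A* RNAi over control RNAi that were tested between weeks or between tissues, and were called, are given here as values. In the head, dd_432 (*MhcA*) was lower by more at week 5 than at week 2, with a difference of -0.76 on the log2 scale (SE 0.13, edgeR adjusted p = 0.0116). The *nr4A(RNAi)* level was below every control in 3 of 3 libraries of each of these weeks. The shares of all contigs below in this way in these weeks are not given here. The call was lost with a replicate block (adjusted p = 0.147), without control week 2 replicate 3 (adjusted p = 0.0637) and without *nr4A(RNAi)* week 2 replicate 1 (adjusted p = 0.0622). Between the tissues, subtracting the mean difference of tails from that of heads gave -0.34 for dd_432 (adjusted p = 0.000542), -0.21 for dd_249 (*MYH7*, adjusted p = 0.0206) and -0.22 for dd_711 (*MYH1*, adjusted p = 0.00912). The call of dd_249 was lost with a replicate block (adjusted p = 0.0684) and in 4 of 6 fits that left out 1 replicate number of 1 RNAi group, and that of dd_711 in 3 of these 6. The *nr4A(RNAi)* heads were below every control head of their week in 12 of 12 libraries for dd_432 and dd_249 and in 11 of 12 for dd_711, and the *nr4A(RNAi)* tails in 9, 6 and 7 of 12. Over all contigs, 0.643% were below in all 12 heads, and no share was computed for the smaller counts.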

How the results depend on the processing

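Among 380 recomputed values other than those that left out 1 library, 316 kept their direction and their side of the threshold, as did 661 of 720 with 1 library left out. The replicate numbers did not pair *nr4A(RNAi)* with control libraries of a tissue and week over the series (12 of 24 same-numbered pairs had a correlation above 0.1, and 13 of 24 libraries correlated best with their own number). They did in 1 of 8 comparisons, head week 2, where the 3 pairs had correlations of 0.15 to 0.22 and 3 of 3 libraries were closest to their own number, as were 3 of 3 at tail week 3. With a replicate block, the head change from week 2 to week 5 of dd_432 was -0.76 (adjusted p = 0.147) and the head minus tail difference of dd_249 was -0.21 (adjusted p = 0.0684), neither called; over all contigs it called 8.05% in the head mean, 2% in the tail mean, 0% in the head change and 0.721% between tissues, against 13%, 3.08%, 0.27% and 1.25% without it. In control heads over control tails the block gave 0.14 for dd_1434, called, and 0.000399 for dd_249, against -0.000617 without it. That value of dd_249 was also positive with DESeq2 (0.0081), median-of-ratios factors (0.0080), no filter (0.024) and without the 6 libraries that stood apart (0.030). Without a filter dd_1434 (0.15) and dd_432 (0.074) were called there.

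DESeq2 called the head change from week 2 to week 5 of dd_249 (-0.43) and dd_711 (-0.51), the control change of dd_249 (0.25) and dd_711 (0.24) in heads and (0.28 and 0.27) in tails, and 1, 3 and 2 of the 4 contigs at head week 4, head week 5 and tail week 4. It gave no adjusted p for dd_1434 in 4 head comparisons. Over all contigs it called 21, 144 and 810 at head weeks 2, 4 and 5, where edgeR called 0, 9 and 2. When 1 fit per tissue took the place of the weekly fits, 0, 3 and 4 of the 4 were called at head weeks 3, 4 and 5, and 1 at tail week 5, among 0.245%, 1.11%, 13% and 1.7% of all contigs.

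Without the 6 libraries that stood apart, dd_1434 was called in the tail mean (-0.29), the head change from week 2 to week 5 (-0.69), the head minus tail difference (-0.25), control heads over tails (0.086, with dd_432 at 0.075) and the control change (0.26 in heads and 0.43 in tails). dd_249 and dd_711 were called in the head change (-0.44 and -0.47) and the control change (0.26 and 0.25 in heads, 0.28 and 0.27 in tails), dd_432 in the control change in heads (0.28), and 4 of 4 at head weeks 4 and 5. dd_1434 turned to -0.20 at tail week 3 and to -0.38 in the tail change.

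With 1 library left out, dd_1434 ranged from -1.45 to -0.91 in the head mean, -3.26 to -1.10 in the head change, -0.38 to 0.55 in the tail change, 0.068 to 0.18 in control heads over tails and -0.20 to 0.24 at tail week 3. The head change ran from -0.82 to -0.63 for dd_432, -0.47 to -0.34 for dd_249 and -0.54 to -0.40 for dd_711. The head minus tail difference ran from -0.23 to -0.17 for dd_249 and -0.23 to -0.19 for dd_711, control heads over tails from -0.032 to 0.039 for dd_249, and the control change in tails from 0.32 to 0.44 for dd_432. At tail week 2 dd_249 ran from -0.036 to 0.084 and dd_711 from -0.058 to 0.10, and dd_249 at tail week 3 from -0.038 to 0.028. Calls among the 4 were 0 to 4 at head weeks 4 and 5, 0 to 2 at tail week 4 and 1 to 2 at tail week 5. Of these, 4 came without *nr4A(RNAi)* head week 4 replicate 2 and without *nr4A(RNAi)* head week 5 replicate 3. The shares of all contigs called in these fits are not given here, except for head week 4 without replicate 2 (3.24% of 18851 contigs). The cause of these changes was not tested.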
